A study of Rattus norvegicus with 23 samples.

Results

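Corn oil served as the vehicle in 2 separate rat studies of this series, and the livers of both sets of corn oil controls are compared here. The members were chosen by the volume written in the sample titles: 3 rats had corn oil at 5 ml/kg and 3 rats had corn oil at 2 ml/kg, 6 of the 23 liver samples in all. The corn oil 5 ml/kg rats were the controls of a study of alpha-naphthylisothiocyanate (ANIT), a bile duct toxicant. The corn oil 2 ml/kg rats were the controls for acetaminophen in a study that also held diclofenac. Volume and study changed together, so an effect of the oil volume and a difference between the studies cannot be told apart. No compound was given to any of the 6 rats, and all had the same carrier by the same route.

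All animals were male Sprague Dawley rats from a single supplier, typically 6 to 8 weeks old at the start. Ages are not given by group. Reported serum alkaline phosphatase, phosphate, calcium and albumin were higher in the corn oil controls of the ANIT study, without overlap. Glutamate dehydrogenase, a liver leakage enzyme, was lower in them without overlap, as were carbon dioxide, creatinine and globulin. Whether the corn oil groups were matched in age or condition was not tested. Following the study's methods, dosing was by oral gavage on 5 days, food was withheld overnight, and the left lateral lobe was taken 24 h after the last dose. Biotin-labelled copies of the RNA were read on Affymetrix rat arrays, 1 sample to an array. Values are log2 units after robust multichip averaging (RMA), so that a difference of 1 is a doubling. The titles of the corn oil 5 ml/kg samples start with different animal numbers and end in the same one, and the count of 3 rats rests on the first number. Livers of other vehicle groups, also gavaged, are used below. Water at 10 ml/kg (2 rats) was given in the same study as corn oil at 2 ml/kg. The vehicle of yet another study was 35% ethanol at 2 ml/kg (3 rats). Nothing in the titles tells which animals shared a cage or a processing day, and p-values measure the spread between these rats only.

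Liver tissue is mostly hepatocytes, and between them run sinusoids lined by a fenestrated endothelium that takes up waste molecules through scavenger receptors such as the stabilins. Stellate cells sit beneath that lining and store vitamin A as retinyl esters. A gavage of corn oil brings the liver a load of triglyceride, and fatty acids from it can enter cells through carriers and activate the receptor PPAR alpha, which turns on genes for fat burning. In whole tissue, fewer cells of a type and less RNA per cell cannot be told apart.

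The arrays were of similar quality, with 2 exceptions that touch the comparison. Hepatocyte products were at the top of the scale, as a liver label requires: albumin (Alb) lay at 14.57 to 15.98 in corn oil 5 ml/kg livers and at 15.97 to 15.99 in corn oil 2 ml/kg livers. The low albumin value belongs to replicate 2 of corn oil 5 ml/kg, whose whole scale ended at 14.57, whereas replicates 1 and 3 reached 15.97 and 15.98. Its 120 brightest probe sets, those with a group mean above 14, lay a median of 0.27 below the mean of replicates 1 and 3. In the same study, ANIT replicates 1 and 2 also ended low, at 14.58 and 14.97, and ANIT replicate 3 reached 15.95. Every array of the other studies reached at least 15.86, and the cause was not tested. Replicate 3 of corn oil 2 ml/kg also stood apart. On the first principal component of the 11 vehicle arrays, which held 22.9% of the variance, the corn oil 5 ml/kg livers scored 18.7, 17.9 and 19.5, and the corn oil 2 ml/kg livers -6.91, -10.4 and 7.80. Replicate 3 of corn oil 2 ml/kg was thus the corn oil 2 ml/kg liver nearest to the other corn oil group. Pairs of arrays correlated across probe sets at 0.994 to 0.995 within corn oil 5 ml/kg, 0.992 to 0.995 within corn oil 2 ml/kg, and 0.9896 to 0.9938 between the groups. The 3′ minus 5′ difference of the actin control probe sets, a sign of RNA integrity, was 0.87 to 0.97 in corn oil 5 ml/kg livers and 0.76 to 0.95 in corn oil 2 ml/kg livers. For the Gapdh control probe sets it was 0.74 to 0.83 in corn oil 5 ml/kg livers and 0.72 to 0.73 in corn oil 2 ml/kg livers, without overlap, and its part in the results was not tested. Replicate 3 of corn oil 2 ml/kg also differed from replicates 1 and 2 in control values. Its actin difference was 0.95 (against 0.83 and 0.76) and its hexokinase difference 1.67 (against 1.55 and 1.48). Its hybridisation control mean was 11.56, against 11.77 in both. Corn oil 5 ml/kg livers had 1.66, 1.70 and 1.51 for hexokinase and 11.58, 11.51 and 11.76 for hybridisation controls. The part of these values in the results was not tested.

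**Figure D1:**
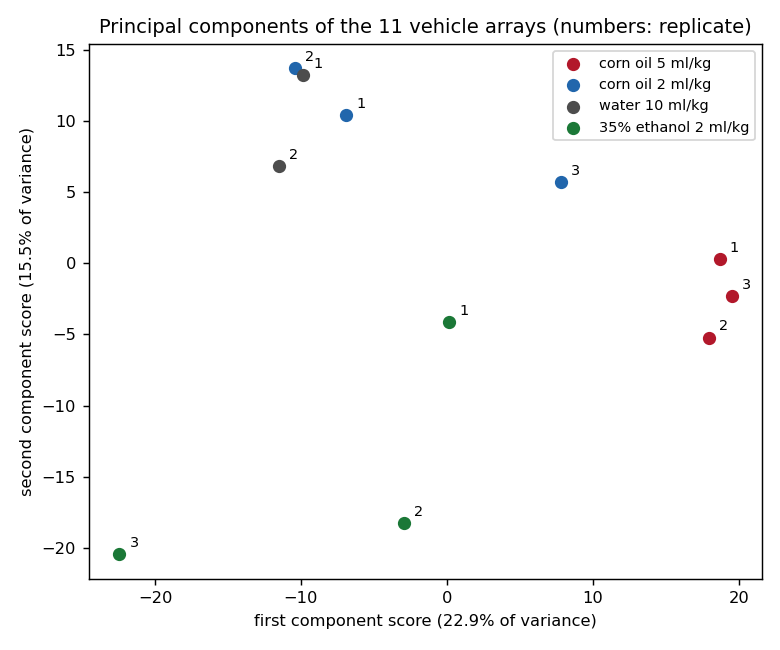
Scores of the 11 vehicle arrays on the first component (x axis, 22.9% of variance) and the second component (y axis, 15.5%), coloured by group and numbered by replicate. The 3 corn oil 5 ml/kg arrays sit between 17.9 and 19.5 on the first component, and the corn oil 2 ml/kg arrays are spread from -10.4 to 7.80.

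The livers of the 2 corn oil groups differed in 69 of 31042 probe sets, 0.222% of those tested by limma at an adjusted p under 0.05 and a fold change over 1.5. Of these, 52 were higher (0.168%) and 17 lower (0.0548%) in corn oil 5 ml/kg livers. The higher set held genes of blood vessel lining, of basement membrane and of vitamin A handling, and the lower set held a cadherin, a phosphodiesterase, the hepatocyte factor Foxa2 and the serine-degrading enzyme Sds. Counted as genes through a single probe set each, 28 were higher (0.197%) and 7 lower (0.0492%) among 14217, 0.246% together. Fold changes of called probe sets ran between 1.51 and 4.84. Without a fold threshold 88 probe sets passed, and 3422 had an unadjusted p under 0.05.

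The calls rested on small groups. Leaving out replicate 2 of corn oil 5 ml/kg, the array with the lowered top end, left 0 calls in limma, with 2734 probe sets at an unadjusted p under 0.05 and a smallest adjusted p of 0.0531. Leaving out replicate 3 of corn oil 2 ml/kg gave 261 calls, 175 higher and 86 lower. The variance of the water and ethanol rats also bore on the calls: in a fit over the 11 vehicle arrays 28 of the 69 calls remained, 19 of the 52 higher and 9 of the 17 lower. Each of the 69 calls was lost under at least 1 alternative, and the highest adjusted p that a called probe set had under the alternatives was 0.137 to 0.572. The methods' t-test called 107 probe sets at its unadjusted p under 0.01 and 0 after Benjamini-Hochberg adjustment, with 2751 at an unadjusted p under 0.05.

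**Figure D2:**
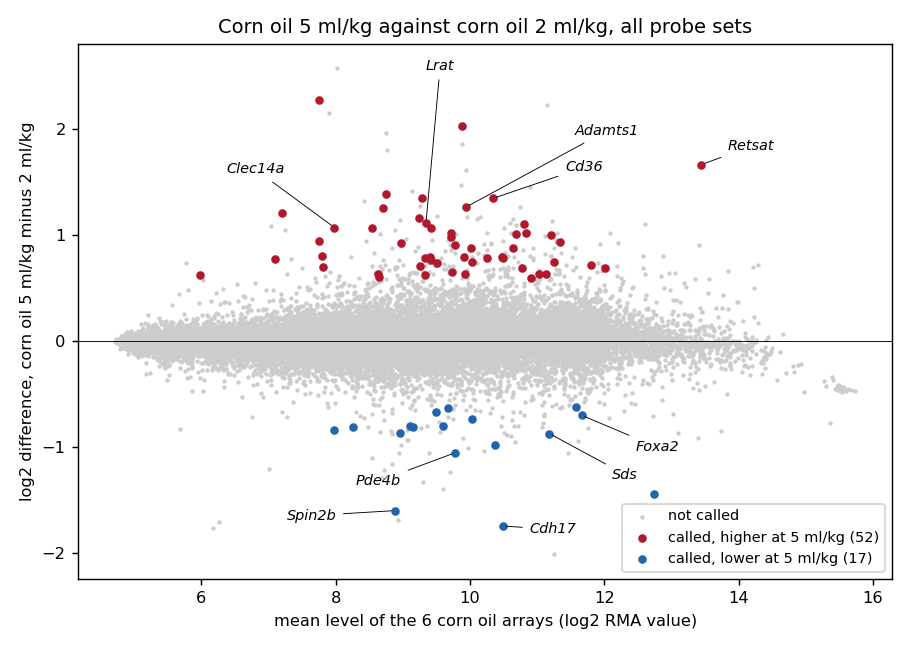
Log2 difference, corn oil 5 ml/kg minus corn oil 2 ml/kg (y axis), against the mean log2 level of the 6 corn oil arrays (x axis) for all probe sets, with the 52 called higher in red and the 17 called lower in blue. The grey tail below 0 at the far right holds the brightest probe sets, which were low on replicate 2 of corn oil 5 ml/kg.

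Retinol metabolism supplied the largest called rise with a gene name. Retsat, retinol saturase, which converts retinol to dihydroretinol, read 14.52, 14.14 and 14.16 in corn oil 5 ml/kg livers, against 12.55, 12.60 and 12.69 in corn oil 2 ml/kg livers. The groups lay far apart and neither had an outlying rat. The difference was 1.66 ± 0.11 (SE, n = 3 each), 3.16-fold, with an adjusted p of 0.00576 in limma. The other vehicles were spread, and Retsat read 13.79 and 12.70 in water livers and 13.75, 12.36 and 13.65 in ethanol livers. Water and ethanol each held rats at the corn oil 2 ml/kg level and rats well above it, and all 3 corn oil 5 ml/kg livers were above all of them. In the fit over the 11 vehicle arrays, which takes in this spread, Retsat was not called between the corn oil groups (adjusted p = 0.0928).

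Lrat, the acyltransferase that makes the retinyl esters stored in stellate cells, moved the same way. Its values were 9.95, 9.78 and 9.97 in corn oil 5 ml/kg livers, against 8.89, 8.92 and 8.56 in corn oil 2 ml/kg livers, a difference of 1.11 ± 0.11 (SE), 2.16-fold (adjusted p = 0.0150). Water livers had 8.91 and 9.31 and ethanol livers 9.43, 9.63 and 8.62, all below the corn oil 5 ml/kg livers. The fit over the 11 vehicle arrays did not call Lrat (adjusted p = 0.0850). Both genes are shown with the DNA before their starts, because retinoic acid, an oxidised product of retinol, is itself a ligand of nuclear receptors.

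The 250 bases before each start are from RefSeq on assembly GRCr8. Capitals mark matches to 3 motifs, searched on both strands: the GC box with the letters GGGCGG, the CCAAT box, and a core motif of nuclear receptors with the letters AGGTCA. No marked motifs of different kinds overlap. Clec14a, an endothelial gene described below, is shown with them, and the last sequence is the whole stretch between the starts of Col4a1 and Col4a2, the paired collagen IV genes that are read in opposite directions and that both rose.
Retsat, chr4:106211209-106211458, plus strand: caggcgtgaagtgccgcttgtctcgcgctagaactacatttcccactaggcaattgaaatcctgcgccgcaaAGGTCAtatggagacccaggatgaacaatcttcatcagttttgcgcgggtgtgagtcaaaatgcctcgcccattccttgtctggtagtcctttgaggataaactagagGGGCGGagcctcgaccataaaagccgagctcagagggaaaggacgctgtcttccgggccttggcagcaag
Lrat, chr2:170571213-170571462, minus strand: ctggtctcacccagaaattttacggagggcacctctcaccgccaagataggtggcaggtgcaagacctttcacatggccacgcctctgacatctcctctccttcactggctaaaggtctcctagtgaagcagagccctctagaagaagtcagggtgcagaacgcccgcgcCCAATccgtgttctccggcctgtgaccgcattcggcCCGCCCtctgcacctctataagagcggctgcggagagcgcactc
Clec14a, chr6:81619557-81619806, minus strand: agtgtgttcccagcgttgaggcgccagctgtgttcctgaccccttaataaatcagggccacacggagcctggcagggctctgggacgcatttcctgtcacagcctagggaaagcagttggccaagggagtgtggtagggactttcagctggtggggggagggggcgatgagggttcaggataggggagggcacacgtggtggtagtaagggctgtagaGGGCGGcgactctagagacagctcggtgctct
Col4a1 and Col4a2, chr16:84885521-84885596, plus strand: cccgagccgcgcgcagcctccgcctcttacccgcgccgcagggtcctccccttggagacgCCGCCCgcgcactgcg

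Of the 49 genes named by called probe sets, 36 had such a stretch in the promoter table. A GC box was found in 12 of 25 genes called higher and 4 of 11 called lower, against 32.4% of 27457 genes in the table. The CCAAT box stood in 10 of 25 and 3 of 11, against 34.3%. The nuclear receptor motif stood in 4 of 25 and 2 of 11, against 13.7% of the table. Retsat was one of the 4, and Lrat was not. These matches describe letters only, and 13 of the called genes could not be searched. Only 76 bases separate the starts of Col4a1 and Col4a2.

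Several genes known from the vessel lining were called higher, a grouping made after their values were seen and given no test. Clec14a, a lectin-like receptor of endothelial cells, read 8.59, 8.64 and 8.32 in corn oil 5 ml/kg livers, against 7.44, 7.37 and 7.54 in corn oil 2 ml/kg livers (difference 1.07 ± 0.10 SE, adjusted p = 0.0121). Tie1, a receptor tyrosine kinase of endothelium, read 9.81, 9.85 and 9.74, against 9.01, 8.80 and 9.21 (0.79 ± 0.10, adjusted p = 0.0412). In both genes the corn oil groups were well separated, but water replicate 2 came close to the corn oil 5 ml/kg livers, with 8.19 for Clec14a and 9.73 for Tie1. Adgrl4, an adhesion receptor of endothelial cells, differed by 0.79 ± 0.06 and varied little, with 10.29 to 10.31 in corn oil 5 ml/kg livers and 9.46 to 9.58 in corn oil 2 ml/kg livers. Cd93, found on endothelium and myeloid cells, differed by 0.78 ± 0.11 (adjusted p = 0.0494), although its dimmer probe set differed by only 0.10. Emcn, the sialomucin endomucin, differed by 0.62 ± 0.08 (adjusted p = 0.0417), and Ramp2, the partner of the adrenomedullin receptor, by 0.73 ± 0.08. Of these 6 genes only Adgrl4 remained a call between the corn oil groups in the fit over the 11 vehicle arrays (adjusted p = 0.0404). There the adjusted p was 0.0630 for Ramp2, 0.0750 for Clec14a, 0.149 for Tie1, 0.197 for Cd93 and 0.274 for Emcn.

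Adamts1, a secreted protease that cuts matrix proteoglycans, was the clearest of the matrix genes against every other vehicle. It read 10.40, 10.69 and 10.65 in corn oil 5 ml/kg livers and 9.38, 9.12 and 9.44 in corn oil 2 ml/kg livers, a difference of 1.26 ± 0.11 (SE), 2.40-fold (adjusted p = 0.0121). The water livers (8.94 and 9.36) and the ethanol livers (9.32, 9.58 and 9.15) lay with corn oil 2 ml/kg. In the fit over the 11 vehicle arrays it stayed a call between the corn oil groups (adjusted p = 0.0162), and Adamts1 was 1.42 higher at corn oil 5 ml/kg than in water livers (adjusted p = 0.0133) and 1.23 higher than in ethanol livers (adjusted p = 0.00778).

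Basement membrane genes rose together, a grouping made after their values were seen and given no test. Col4a1, a chain of the collagen IV network, read 11.002, 11.11 and 11.14 in corn oil 5 ml/kg livers, against 10.09, 10.37 and 10.15 in corn oil 2 ml/kg livers (0.88 ± 0.09 SE, adjusted p = 0.0150). Its partner Col4a2 differed by 0.63 ± 0.08 (adjusted p = 0.0394). Nid1, nidogen, which links laminin to collagen IV, read 11.77, 11.80 and 11.85, against 10.97, 10.93 and 10.71 (0.94 ± 0.08, adjusted p = 0.0121), while a dimmer Nid1 probe set differed by 0.06. Sparc, a collagen-binding matrix protein, rose on both of its probe sets, by 0.996 and by 0.690. Pxdn, peroxidasin, which cross-links collagen IV, differed by 0.78 ± 0.09. The 3 corn oil 5 ml/kg livers lay above the 3 corn oil 2 ml/kg livers in every called probe set of this group. That was so for all 52 probe sets called higher and is not particular to these genes. In this group they lay above the water and ethanol livers too, although for Pxdn the highest ethanol liver and corn oil 5 ml/kg replicate 1 both read 9.53. In the fit over the 11 vehicle arrays Col4a1, Nid1 and both Sparc probe sets remained calls (adjusted p = 0.0162 to 0.0213), and Col4a2 and Pxdn did not (0.0970 and 0.128).

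Transcription factors with known roles in the vessel wall were also called higher. Elk3 differed by 1.06 ± 0.11 (SE) and Ets1, which read 11.59 to 11.65 in corn oil 5 ml/kg livers and 10.76 to 10.97 in corn oil 2 ml/kg livers, by 0.74 ± 0.07; both are ETS family factors. Mef2c differed by 0.70 ± 0.09, and its dimmer probe set by 0.56 ± 0.24, which was not called (adjusted p = 0.454 in limma). Elk3 had 3 dimmer probe sets that differed by 0.05 to 0.29 and were not called. The fit over the 11 vehicle arrays kept the calls of Elk3 and Mef2c and not that of Ets1 (adjusted p = 0.0659).

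Further rises belonged to lipid uptake and to signals between cells. Cd36, a carrier that brings fatty acids into cells and is a PPAR alpha target, read 11.42, 10.66 and 10.96 in corn oil 5 ml/kg livers, against 9.65, 9.65 and 9.72 in corn oil 2 ml/kg livers. The difference was 1.34 ± 0.17 (SE), 2.54-fold (adjusted p = 0.0344). Water livers (10.08 and 10.43) and ethanol livers (10.18, 9.81 and 9.999) fell between the corn oil groups, so that both corn oil groups lay at an end of the vehicle range. Tnfsf10, the death ligand TRAIL, differed by 1.16 ± 0.14, with 9.92, 9.92 and 9.64 in corn oil 5 ml/kg livers, against 8.64, 8.42 and 8.94 in corn oil 2 ml/kg livers. Cd48, a surface protein of blood cells, read 11.18, 11.22 and 11.17, against 10.10, 10.28 and 10.17 (1.01 ± 0.07, adjusted p = 0.00576). Pf4, a platelet chemokine, read 9.97, 10.45 and 10.19, against 9.34, 9.27 and 9.06, but 2 ethanol livers reached 10.25 and 10.18. St6galnac4, a sialyltransferase, differed by 1.11 ± 0.10, and a water liver at 11.47 lay within the corn oil 5 ml/kg range. Its other 2 probe sets, both dimmer, differed by -0.05 and 0.27 and were not called. The fit over the 11 vehicle arrays kept the calls of Cd36, Tnfsf10 and Cd48, and the adjusted p was 0.0707 for Pf4 and 0.166 for St6galnac4.

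Several calls came from a probe set that was not the brightest of its gene. Nrp1, a co-receptor for semaphorins and VEGF, read 9.34, 9.31 and 9.33 in corn oil 5 ml/kg livers and 8.05, 7.95 and 8.23 in corn oil 2 ml/kg livers on the called probe set (1.25 ± 0.08 SE), and its brighter probe set differed by 0.51 (adjusted p = 0.147). Bmp2, a ligand that in liver is made largely by endothelial cells, read 9.98, 9.97 and 9.92, against 8.53 and 8.28 in replicates 1 and 2 and below 9.01 in replicate 3 (1.35 ± 0.16, adjusted p = 0.0291), and its brighter probe set differed by 1.26 (adjusted p = 0.0828). Fubp3 had probe sets that disagreed in sign, 0.80 on the called one and -0.29 on the brighter one. Serpinb9, an inhibitor of granzyme B, was called on both of its probe sets, at 0.78 and 0.63. In the fit over the 11 vehicle arrays Nrp1 remained a call, and Bmp2, Fubp3 and Serpinb9 did not (adjusted p = 0.0620 to 0.128). Of the called probe sets, 18 had no gene name here, and they included the 2 largest called rises, the first at 8.53, 8.73 and 9.41 in corn oil 5 ml/kg livers, against 6.67, 6.44 and 6.73 in corn oil 2 ml/kg livers, and the next at 11.08, 10.34 and 11.25, against 8.80, 8.60 and 9.20. For both, all water and ethanol livers lay far below the corn oil 5 ml/kg livers.

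**Figure D3:**
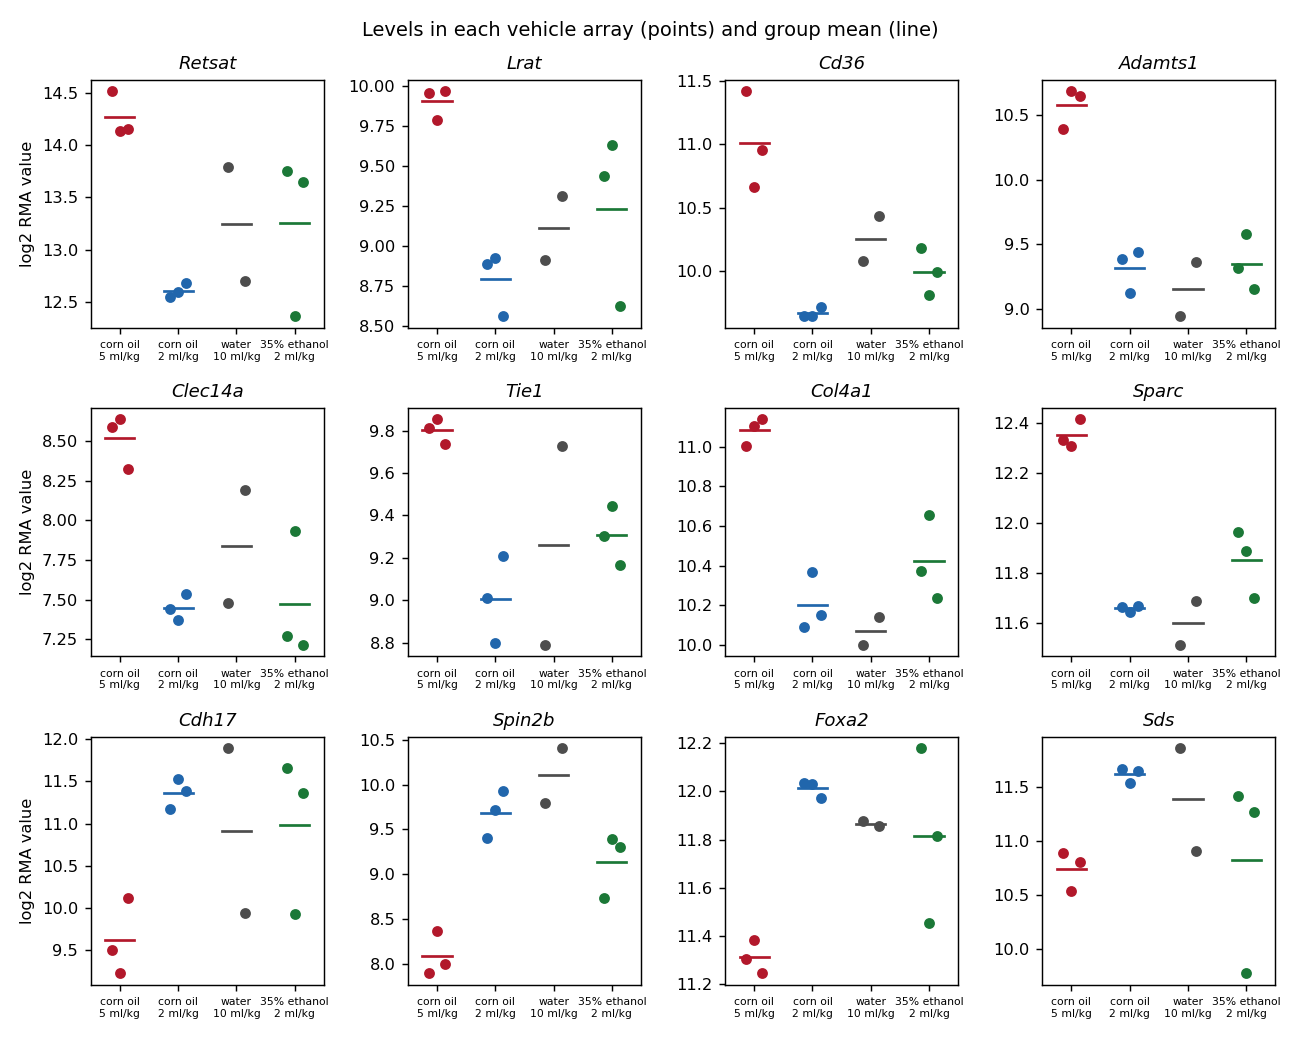
Log2 RMA values (y axes) of 12 called genes in each of the 11 vehicle arrays, grouped along the x axes, with points for rats and lines for group means. The corn oil groups do not overlap in any panel, as in all 69 called probe sets. In Retsat, Cdh17 and Sds the water and ethanol rats are spread over most of the range between the corn oil groups.

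The 7 genes called lower through their main probe set had varied roles. Cdh17, the liver-intestine cadherin, an adhesion protein, read 9.50, 9.22 and 10.11 in corn oil 5 ml/kg livers, against 11.17, 11.53 and 11.38 in corn oil 2 ml/kg livers. It was 3.36-fold lower (-1.75 ± 0.21 SE, adjusted p = 0.0301). The water livers had 11.90 and 9.93 and the ethanol livers 11.66, 9.92 and 11.37, so single rats of both other vehicles were as low as a corn oil 5 ml/kg rat. With these rats in the fit the SE was 0.50 and Cdh17 was not called between the corn oil groups (adjusted p = 0.236). Sds, serine dehydratase, which feeds serine into glucose production, read 10.89, 10.54 and 10.81, against 11.67, 11.53 and 11.65 (-0.87 ± 0.10, adjusted p = 0.0256). It too was low in water replicate 2 (10.91) and ethanol replicate 2 (9.78), the same rats that had low Cdh17, and it was not called in the fit over the 11 vehicle arrays (adjusted p = 0.472).

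Spin2b, of the spindlin family, read 7.89, 8.36 and 7.996 in corn oil 5 ml/kg livers, against 9.40, 9.72 and 9.92 in corn oil 2 ml/kg livers (-1.60 ± 0.16 SE, adjusted p = 0.0150), and every water and ethanol liver was above 8.36. Pde4b, which breaks down cyclic AMP, read 9.17, 9.28 and 9.31, against 10.49, 10.39 and 10.05 (-1.06 ± 0.12, adjusted p = 0.0210). A dimmer Pde4b probe set differed by -0.62 and was not called (adjusted p = 0.185 in limma). On the called probe set the water livers were higher still, at 11.22 and 10.87. The fit over vehicles gave -1.79 for corn oil 5 ml/kg against water (adjusted p = 0.00264) and -0.82 against ethanol (adjusted p = 0.0299). Foxa2, a factor that opens chromatin at hepatocyte genes, read 11.31, 11.38 and 11.25, against 12.04, 12.03 and 11.97 (-0.70 ± 0.06, adjusted p = 0.0121), 1.63-fold lower. Both water livers (11.88 and 11.86) were near corn oil 2 ml/kg and the ethanol livers ran between 11.45 and 12.18. Dixdc1, a Wnt pathway protein, fell by 0.82 and Mtmr7, a phosphoinositide phosphatase, fell by 0.80. Between the corn oil groups the fit over the 11 vehicle arrays kept the calls of Spin2b, Pde4b and Dixdc1, and not those of Foxa2 (adjusted p = 0.0857) and Mtmr7 (adjusted p = 0.137).

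Among the calls made on a second probe set, Il1r1, the interleukin 1 receptor, read 8.05, 7.75 and 7.75 in corn oil 5 ml/kg livers, against 8.61, 8.68 and 8.68 in corn oil 2 ml/kg livers. Its other 2 probe sets differed by -0.45 and -0.49, with adjusted p of 0.0577 and 0.0559. For Il1r1 the ethanol livers (7.89, 7.48 and 7.72) were as low as corn oil 5 ml/kg, and the water livers were the highest, at 9.003 and 9.08. Rup2, urinary protein 2, was 1.44 lower on a probe set whose suffix marks possible cross-hybridisation, and its other 3 probe sets differed by -0.46 to -0.10, so that the gene's own change is uncertain. Slc6a9, a glycine transporter, and Sardh, which degrades sarcosine, were called on a secondary probe set at -0.74 and -0.63, and their main probe sets differed by -0.03 and -0.58. The fit over the 11 vehicle arrays kept the calls of Il1r1 and Sardh, and the adjusted p was 0.0677 for Rup2 and 0.187 for Slc6a9.

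Endothelial markers were the list with the highest median. Of 14 measured, Tie1 and Emcn were called higher and none lower (14.3% called, against 0.246% of all genes), and the median log2 difference was 0.66, against 0.0184 over all genes. Neither call remained in the fit over the 11 vehicle arrays (adjusted p = 0.149 for Tie1 and 0.274 for Emcn). With 1 array left out the list had 0 calls in 5 of 6 cases, and 9 without replicate 3 of corn oil 2 ml/kg. The corn oil groups did not overlap in 12 of the 14, all higher in corn oil 5 ml/kg livers, whereas 17.6% of all genes did not overlap in either direction and 11.8% in the higher direction. Stab2, a stabilin of sinusoidal endothelium that clears hyaluronan, read 11.34, 11.46 and 11.37, against 10.41, 9.98 and 10.70 (1.03, adjusted p = 0.0649). Kdr, the main VEGF receptor, read 12.40, 12.42 and 12.36, against 11.43, 10.94 and 12.07 (0.91, adjusted p = 0.219). In both the corn oil 5 ml/kg livers were tight and the corn oil 2 ml/kg livers were spread, with replicate 2 lowest and replicate 3 highest.

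Other sinusoidal markers had similar values, Stab1 at 0.83 and Gpr182 at 0.91 log2 difference (adjusted p = 0.0697 and 0.105), and neither was called. Pecam1, the common endothelial adhesion molecule, differed by 0.48 and overlapped in no rat. Vwf, which marks larger vessels more than sinusoids, differed by -0.01, with 8.81, 8.90 and 8.84 in corn oil 5 ml/kg livers and 8.87, 8.89 and 8.83 in corn oil 2 ml/kg livers. Averaged over the list, the endothelial level was 10.41 to 10.46 in corn oil 5 ml/kg livers, 9.63 to 10.04 in corn oil 2 ml/kg livers, 9.49 to 10.16 in water livers and 9.79 to 10.12 in ethanol livers. With each array left out in turn the list's median lay between 0.53 and 0.79, a check chosen after seeing the data. The part of this shift in the called vessel and matrix genes was not tested.

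**Figure D4:**
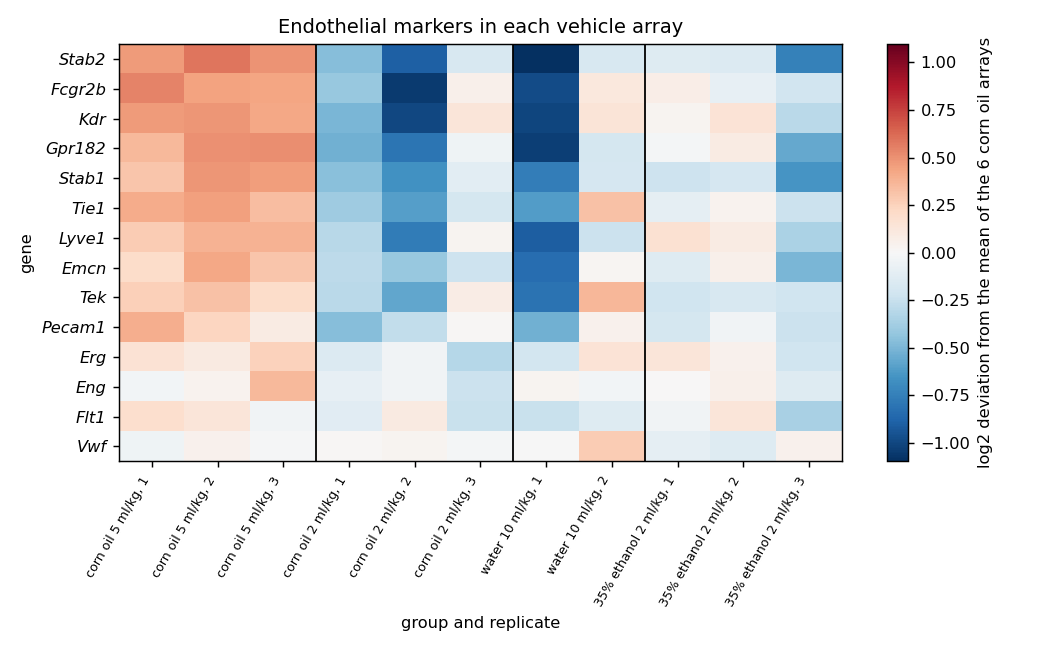
Log2 deviation of 14 endothelial markers (rows) from their mean over the 6 corn oil arrays, for each of the 11 vehicle arrays (columns), red above and blue below that mean. The 3 corn oil 5 ml/kg columns are red in nearly all rows, and corn oil 2 ml/kg replicate 2 and water replicate 1 are the bluest.

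Markers of other non-hepatocyte cells were rarely called, and those of macrophages and of stellate cells were mostly positive. All 18 macrophage markers had a positive difference, against 56.6% of all genes, with a median of 0.36 and 0 called (0.246% of all genes were). The corn oil groups did not overlap in 4 of them, all higher, against 11.8% of all genes. C1qb, a complement subunit made by Kupffer cells, read 11.87, 11.71 and 11.77, against 10.55, 11.17 and 11.50 (0.71, adjusted p = 0.270), and Cd163, a haemoglobin scavenger receptor, differed by 0.48 with overlapping rats. Averaged over the list, the macrophage level was 10.873 to 11.04 in corn oil 5 ml/kg livers and 10.17 to 10.8705 in corn oil 2 ml/kg livers, so that the ranges came close without overlapping. The list's median was 0.16 without replicate 1 of corn oil 2 ml/kg and 0.56 without its replicate 3.

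Of 23 markers of stellate cells and fibroblasts, Lrat and Sparc were called higher (8.70%, against 0.246% of all genes), 12 did not overlap in the higher direction (against 11.8% of all genes) and the median was 0.22. Without any 1 of corn oil 5 ml/kg replicates 1, 2 and 3 or corn oil 2 ml/kg replicate 1 the list had 0 calls. Col1a1, a fibrillar collagen chain, read 10.56, 10.56 and 11.22 in corn oil 5 ml/kg livers, against 10.33, 10.42 and 9.56 in corn oil 2 ml/kg livers, and was not called (0.67, adjusted p = 0.397). Here replicate 3 of corn oil 2 ml/kg was the low one. Of 9 red cell genes 7 were positive (56.6% of all genes were), with a median of 0.09. Of these genes 3 were higher without overlap (against 11.8% of all genes) and 0 were called (against 0.246%). Alas2, which starts heme synthesis in red cells, and the globin Hbb had the largest of these differences, 1.07 and 0.90. Lymphocyte, neutrophil and cholangiocyte markers had medians of 0.04, 0.14 and 0.03 and 0 called each. The pancreatic, adipose and muscle lists, which could mark stray tissue, had 0 called each and medians of -0.02 to 0.05.

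Of 16 hepatocyte markers 1 was positive and 15 negative (56.6% of all genes were positive), and 0 were called (against 0.246%). The list was lower by a median of 0.35, and here a single array decided the value. Without replicate 2 of corn oil 5 ml/kg the median was -0.02, and it was -0.02 after quantile normalization. Transthyretin (Ttr) shows the pattern, at 15.76, 14.41 and 15.73 in corn oil 5 ml/kg livers, against 15.78, 15.78 and 15.79 in corn oil 2 ml/kg livers. The same holds for the acute phase list, with a median of -0.20, -0.02 without that array and -0.02 after quantile normalization. Hepcidin (Hamp), the iron hormone, read 12.81, 13.46 and 13.70, against 14.28, 14.10 and 14.13, without overlap and not called (-0.85, adjusted p = 0.183).

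Genes of fatty acid oxidation and PPAR alpha targets were positive in 33 of 37 cases, against 56.6% of all genes, with a median of 0.25. Cd36 was the only call (2.70%, against 0.246% of all genes), and 9 were higher without overlap, against 11.8% of all genes. The median was 0.13 without replicate 1 of corn oil 5 ml/kg and 0.15 without replicate 2 of corn oil 2 ml/kg. Acot1, an acyl-CoA thioesterase, had the largest difference of all genes by its main probe set but a wide spread, at 11.06, 9.29 and 7.59 in corn oil 5 ml/kg livers, against 6.47, 6.50 and 7.26 in corn oil 2 ml/kg livers (2.57 ± 0.75 SE, adjusted p = 0.261). No corn oil 5 ml/kg rat was within the corn oil 2 ml/kg range, and the water and ethanol livers all read 7.08 or less. Angptl4, an inhibitor of lipoprotein lipase, read 12.64, 12.55 and 12.49, against 11.87, 11.81 and 12.31 (0.56, adjusted p = 0.163), and 2 ethanol livers were at 12.58 and 12.51. Ehhadh, of peroxisomal oxidation, differed by 0.58 and was not called. Of 24 genes of fatty acid synthesis 7 were positive and 17 negative, whereas 56.6% of all genes were positive. Their median was -0.15 and 0 were called, against 0.246% of all genes. Fasn, fatty acid synthase, differed by -0.40 with overlapping rats.

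Amino acid breakdown and the urea cycle were positive in 4 and negative in 37 of 41 genes, whereas 56.6% of all genes were positive. The median was -0.19, with Sds the only call (2.44%, against 0.246% of all genes). In this list 12 genes were lower without overlap, against 5.81% of all genes. Tdo2, which starts tryptophan breakdown, read 13.43, 13.54 and 13.74, against 14.17, 14.23 and 13.83 (-0.51, adjusted p = 0.185). Cps1, the first enzyme of the urea cycle, read 14.09, 14.02 and 14.13, against 14.30, 14.34 and 14.33 (-0.24). These genes are bright, and replicate 2 of corn oil 5 ml/kg had a lowered top end. Without that array the list's median was -0.13, with 34 of 41 genes negative. After quantile normalization the median was -0.165, with 36 genes negative.

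NRF2 targets were positive in 21 of 26 genes (56.6% of all genes were), with 10 higher without overlap (against 11.8% of all genes) and 0 called (against 0.246%). The median was 0.22, and 0.13 when each gene was the mean of all its probe sets. Ugdh, which makes UDP-glucuronic acid, came nearest, at 12.91, 12.74 and 12.87, against 12.39, 12.34 and 12.49 (0.44, adjusted p = 0.0749). Among glutathione S-transferases, Gsta3 read 10.03, 8.67 and 10.29, against 8.06, 7.45 and 8.07 (1.80 ± 0.39 SE, adjusted p = 0.146), and the list as a whole had a median of -0.10, which was -0.04 without replicate 2 of corn oil 5 ml/kg. In bile acid synthesis, Cyp7a1, the rate-limiting enzyme, read 9.62, 8.71 and 10.72, against 11.14, 11.49 and 9.54, with overlapping groups (-1.04 ± 0.61, adjusted p = 0.591). Nr0b2, the repressor SHP, read 10.92, 11.56 and 11.63, against 10.79, 9.99 and 10.72, and was not called (0.87, adjusted p = 0.257). Among transporters, the drug exporter Abcb1a differed by 1.41 and the sterol exporter Abcg5 by 1.02 (adjusted p = 0.102 and 0.0758), without overlap, and neither was called.

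The lists of ribosomal proteins and of the respiratory chain hardly moved. Over all genes 0.246% were called. The 34 ribosomal protein genes differed by -0.11 to 0.09 and the 53 genes of the respiratory chain and ATP synthase by -0.13 to 0.14, with 0 called in each. The core clock had 0 called among 16 genes, with a median of -0.03, and the largest value was 0.77, for Per1. Of 21 cholesterol synthesis genes 4 were positive and 17 negative, whereas 56.6% of all genes were positive. Cell cycle genes, the cytochrome P450 families 1 to 3, interferon response genes, immediate early genes and cholesterol synthesis genes had 0 called each, and medians of -0.02, -0.04, -0.05, 0.01 and -0.12 in that order (0.00344 for the P450 genes after quantile normalization). With each array left out in turn these medians ran between -0.05 and 0.00392 for cell cycle, -0.09 and 0.02 for P450, -0.13 and 0.07 for interferon response, -0.02 and 0.05 for immediate early and -0.19 and -0.07 for cholesterol synthesis genes, and between -0.06 and 0.03 for the core clock.

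**Figure D5:**
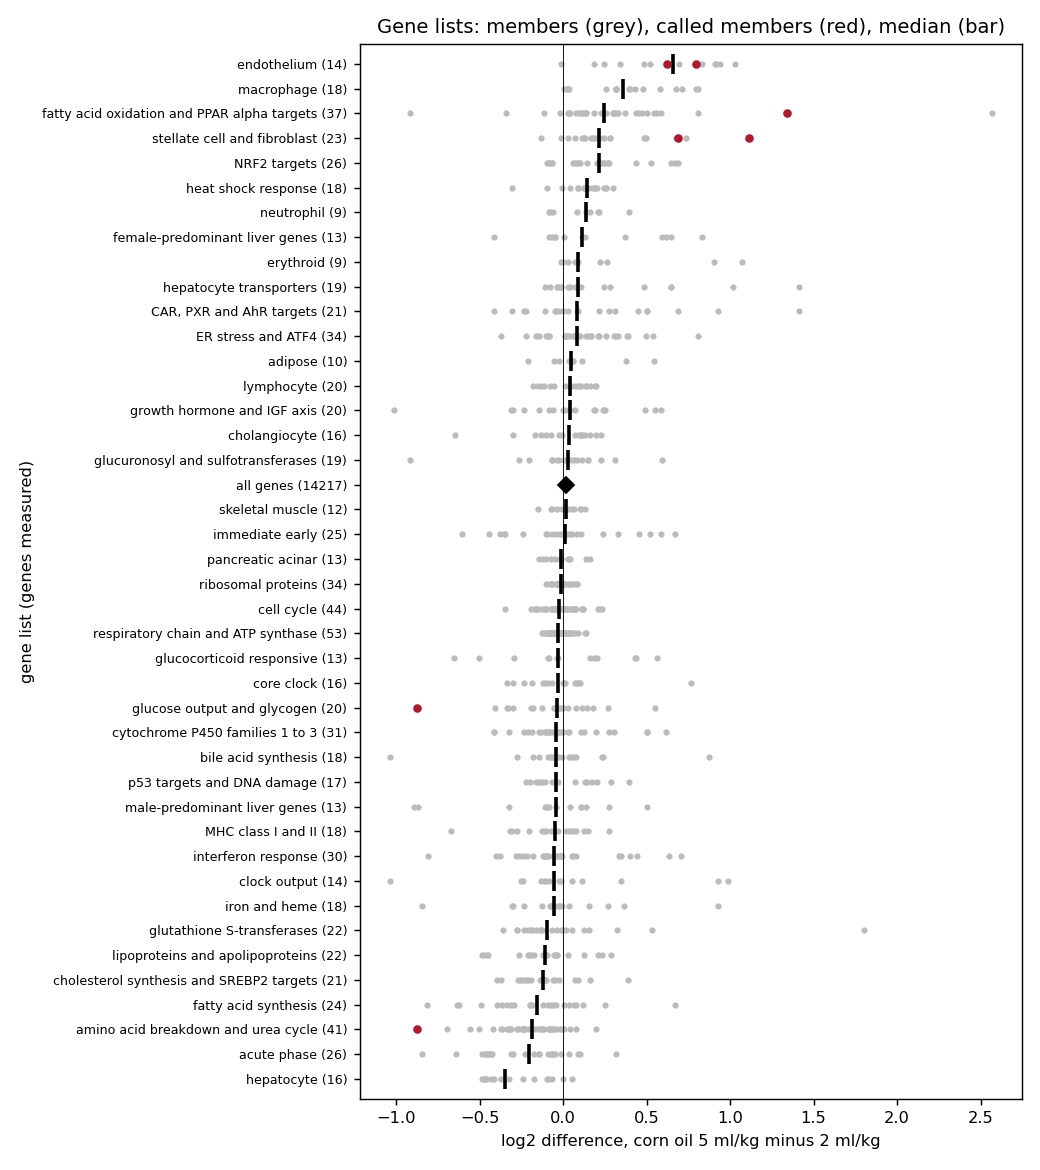
Log2 differences, corn oil 5 ml/kg minus corn oil 2 ml/kg (x axis), of the measured members of 41 gene lists (rows, sorted by median), with called genes in red, the other members in grey, a bar for each median and a diamond for all genes. Endothelial markers have the highest median, 0.66, and hepatocyte markers the lowest, -0.35.

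In most called probe sets the water and ethanol livers were nearer to corn oil 2 ml/kg than to corn oil 5 ml/kg. Among the 52 probe sets called higher, the water mean was nearer to corn oil 2 ml/kg in 49 and the ethanol mean in 50. Among the 17 called lower these counts were 17 for water and 11 for ethanol. All 3 corn oil 5 ml/kg livers were beyond all 8 other vehicle arrays in 48 of the 52 higher and 11 of the 17 lower probe sets, while all 3 corn oil 2 ml/kg livers were beyond all 8 others in 3 and 1. These counts use the corn oil arrays that chose the probe sets and are a description. In a fit of the 11 vehicle arrays, corn oil 5 ml/kg differed from water in 55 probe sets (0.177%) and from ethanol in 112 (0.361%), while corn oil 2 ml/kg differed from water, its study's other vehicle, in 0 (0%, with 1924 at an unadjusted p under 0.05) and from ethanol in 23 (0.0741%). Ethanol and water differed in 130 (0.419%). The contrasts share arrays, the water group has 2 rats, and this fit called 36 probe sets between the corn oil groups.

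Just outside the threshold lay Gadd45g (-0.72, adjusted p = 0.0514), a stress gene, and Ldb2 (0.69, adjusted p = 0.0527), a LIM domain binding protein; just inside were Cdh11, Serpinb9 and Cd93, at adjusted p of 0.0495, 0.0495 and 0.0494. Cdh11 is among the least certain calls, because its 2 other probe sets both differed by -0.11.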

How the data were processed

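Gene expression was measured on single-colour Affymetrix rat arrays. The authors normalized all chips with RMA in Array Studio and deposited log2 values for 31099 probe sets; 57 Affymetrix control probe sets were left out, and no scaling was added. Depth does not apply to arrays, and their number limits precision. The file held no column without a sample. The 6 corn oil arrays were compared in limma 3.58.1 (R 4.3.3), two-sided, with Benjamini-Hochberg adjustment over 31042 probe sets; a call needed an adjusted p under 0.05 and a fold change over 1.5. With 3 rats against 3 an exact rank test cannot go below 0.1, so none was used. Errors marked SE are from limma. The vehicle comparisons used 1 fit over 11 arrays.

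Probe sets were named through the platform annotation, 20826 with 1 gene, 436 with several and 9780 without a name; 20758 were matched by gene ID to the RefSeq GRCr8 name table. A gene was represented by the brightest of its probe sets, on average over 23 samples. No pair of vehicle arrays shared more than 17 identical values, so no array was a copy. The limma step was tested on simulated data.

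Named genes were the 15 largest rises and all falls called through the representative probe set, called members of 41 lists and a few well-known list members; other genes were named after their values were seen. The members and the lists were chosen with earlier results of these data known. The methods' t-test, another variance prior or sample set, quantile normalization, median centring, a dim filter (above the 90th percentile of 6 olfactory receptor probe sets), other fold thresholds, the mean of all probe sets and leaving out each array were the alternatives.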

Additional observations from a re-analysis of the deposited data

How the results depend on the processing

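The fold threshold of 1.5 was kept under the methods' t-test. There the probe set count of 69 (52 higher, 17 lower) became 107 (81 and 26) with unadjusted p under 0.01. After Benjamini-Hochberg it became 0 (0 and 0). With the variance taken from 23 samples it was 35 (27 and 8), from 11 vehicle samples 36 (26 and 10), above the dim filter 15 (12 and 3) and with a fold change over 2 it was 22 (18 and 4); without a fold threshold 26 were lower. Gene counts, 35 (28 and 7), became 54 (43 and 11), 0 (0 and 0), 18 (16 and 2), 18 (15 and 3), 12 (10 and 2) and 12 (9 and 3) under the same 6 settings. The dim filter tests fewer probe sets, a higher fold threshold passes fewer by construction, and for the others the cause was not tested. An intensity trend, quantile normalization, median centring and the mean of all probe sets of a gene changed no count by over 1.5 times.

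Leaving out 1 array gave 0 to 261 probe sets (0 to 175 higher, 0 to 86 lower) and 0 to 136 genes (0 to 105 and 0 to 31). Probe set calls numbered 1, 0 and 17 without replicates 1, 2 and 3 of corn oil 5 ml/kg, and 7, 20 and 261 without replicates 1, 2 and 3 of corn oil 2 ml/kg; fewer samples per group account for part of the losses by construction. Over 1053 alternative values of the 69 called probe sets, 512 kept the call and 541 lost it. The NRF2 list had a median of 0.13 with the mean of all probe sets of a gene. Under quantile normalization the medians of 2 lists changed sign, cytochrome P450 families 1 to 3 (-0.04, then 0.00344) and glucocorticoid responsive genes (-0.03, then 0.00641), and under median centring none of the 41 did. Leaving out 1 array changed the sign of the median at least once in 18 of the 41 lists, all with medians of -0.05 to 0.08; 6 changed sign without replicate 2 of corn oil 5 ml/kg and 7 without replicate 3 of corn oil 2 ml/kg. No paired analysis was possible because the 2 corn oil groups were different rats of different studies, and replicate numbers carry no pairing.

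The number of rats, the shared change of volume and study, and the lowered top end of 1 corn oil 5 ml/kg array limit these results. A maximum below 15.86 was seen only in arrays of that array's study. Acetaminophen replicate 3, from the study of the corn oil 2 ml/kg rats, reached 15.95 but had only 85 probe sets above 14. Acetaminophen replicates 1 and 2 had 109 each, and replicate 2 of corn oil 5 ml/kg had 84. The olfactory gauge holds only 6 probe sets, so the dim filter is a rough one.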
